A study of Homo sapiens with 7 samples.

Results

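The region described here surrounds the MYC gene in band 8q24, from position 127800000 to 129300000 on human chromosome 8 of build hg19. Its members are all peaks of 7 deposited peak lists whose midpoint lies in that interval. The region held 494 of the 467188 peaks of the series. Peaks that overlapped by at least 1 bp, from any list, were merged into sites, which gave 191 sites in the region out of 193692 in the whole genome.

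Chromatin immunoprecipitation followed by sequencing was used on a pair of established human prostate cancer cell lines, 22Rv1 (the labels write CWR22-Rv1) and LNCaP. In 22Rv1, FOXA1 was mapped in cells stably expressing a hairpin against SETD7 (shSETD7), in cells with a control hairpin (shCTL, written shNTC in the design text) and in vehicle cells, and SETD7 was mapped in vehicle cells. LNCaP cells were treated for 4 hours with GSK2879552 plus PFI-2 (below, the combination), with GSK2879552 alone, or with DMSO before FOXA1 was mapped. The combination is named from its sample title, since its treatment label reads with or without PFI-2. The SETD7 antibody came from CST and the FOXA1 antibody from Abcam. GSK2879552 inhibits the lysine demethylase LSD1, and PFI-2 inhibits the lysine methyltransferase SETD7. Each group is 1 library, so no difference between conditions was tested, and the 95% Wilson intervals given with shares cover counting error only. The labels do not say whether the hairpin lines are clones, and SETD7 protein after knockdown was not analysed here. Every peak name in the vehicle FOXA1 list includes siNTC, a tag found nowhere in the labels, so these cells are called vehicle only as labelled. Peak lists carry no RNA level, so neither the identity of the lines nor MYC expression was examined.

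MYC encodes a basic helix-loop-helix transcription factor that drives cell growth and division and is often overexpressed in prostate cancer. Much of the sequence before it contains no large protein-coding gene but carries enhancers and inherited risk variants for prostate and other cancers, and some of these enhancers contact the MYC promoter over long distances. PVT1, a long noncoding RNA gene, lies beyond MYC and is often gained together with it. FOXA1 is a forkhead pioneer factor that opens chromatin for the androgen receptor at such enhancers. In the RefSeq table of assembly GRCh38, used only for gene order, PCAT1, PRNCR1, CASC19, CCAT1, CASC8, CCAT2, POU5F1B and CASC11 precede MYC in this order, and PVT1 follows it. Most of these are long noncoding RNA genes, and POU5F1B is a protein-coding retrogene of POU5F1. No hg19 annotation was used, so sites are given by position and by distance from the MYC position, taken as 128.75 Mb, and not assigned to gene bodies. Sites before this position lie on the side of the risk enhancers, and sites after it lie on the side of PVT1.

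FOXA1 peaks were dense in the region. The shSETD7, shCTL and vehicle lists of 22Rv1 held 69, 86 and 85 peaks there, and the combination, GSK2879552 and DMSO lists of LNCaP held 81, 66 and 83. Windows of the same length, 1.5 Mb, tiled along chromosomes 1 to 22 and X and kept where any list had a peak, had a median of 31, 43 and 32 peaks in those 22Rv1 lists and of 44, 34 and 42 in those LNCaP lists. On chromosome 8 alone the medians were 42.5, 56 and 43 in the 22Rv1 lists and 47, 35.5 and 46 in the LNCaP lists. None of the 96 windows of chromosome 8 held as many peaks as the region in the vehicle, combination, GSK2879552 or DMSO list. The shSETD7 list had 4 such windows and the shCTL list had 5. Over all 1915 windows, at least as many peaks as in the region were found in 3.76% for shSETD7, 3.03% for shCTL and 0.313% for vehicle. The corresponding shares were 0.627% for the combination, 0.627% for GSK2879552 and 0.157% for DMSO. These are descriptions of the lists, whose read depth is unknown.

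Peaks of a list are ranked here by the authors' score, whose definition is not given. Strong and weak below mean a high and a low score only. The score is therefore used as a percentile within each whole list, where 100 is the strongest peak. Scores had a floor of 13 in the 22Rv1 lists and of 40 to 48 in the LNCaP lists, so percentiles are set side by side and not read as a change. Peaks of the region spanned nearly the whole range of strength, with median percentiles of 58.1, 53.6 and 53.2 in the shSETD7, shCTL and vehicle lists. In the combination, GSK2879552 and DMSO lists the medians were 51.1, 55.5 and 47.2. The strongest 10% of the whole list held 9 of the shSETD7 peaks, 7 of the shCTL peaks and 13 of the vehicle peaks, or 13.0%, 8.14% and 15.3% of the region's peaks. It held 13 peaks of the combination, 12 of GSK2879552 and 11 of DMSO, or 16.0%, 18.2% and 13.3%.

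**Figure D1:**
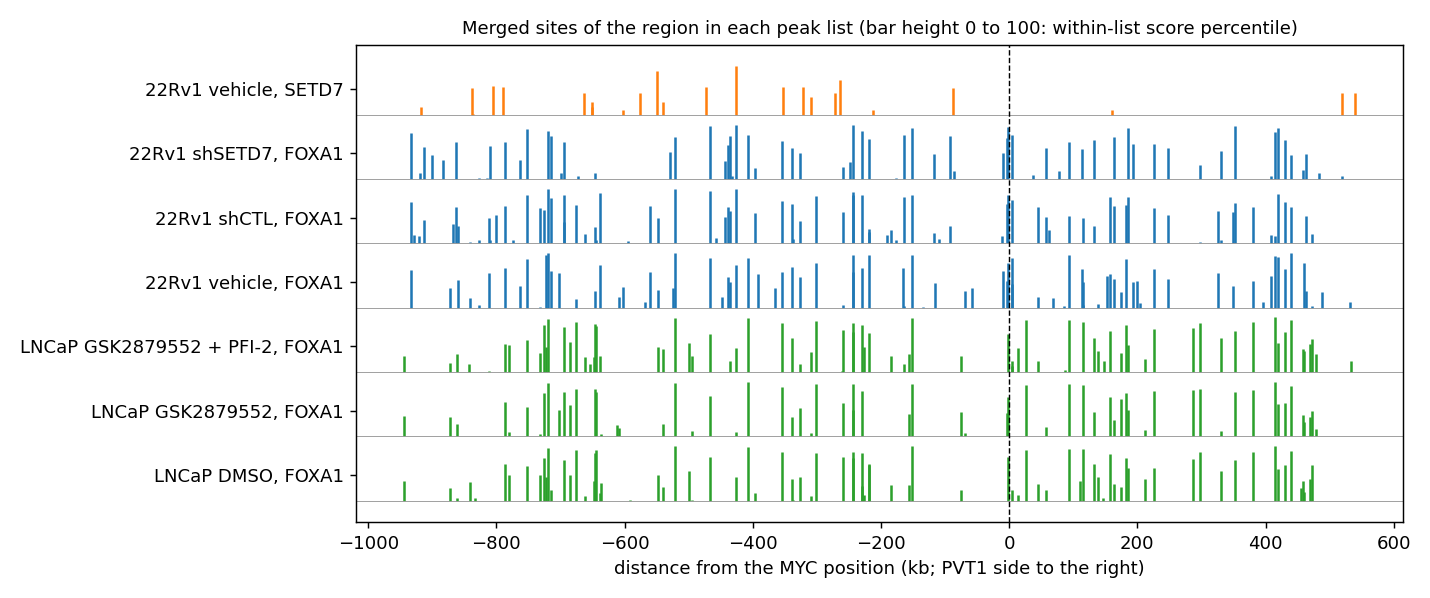
Merged sites by distance from the MYC position in kb (horizontal) in each of the 7 peak lists (rows), with bar height giving the within-list score percentile from 0 to 100. FOXA1 sites lie on both sides of MYC in every FOXA1 list, while 21 of the 24 SETD7 peaks lie before it.

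FOXA1 sites were spread along the interval rather than gathered at MYC. The part before the MYC position is 950 kb long and the part after it 550 kb. Peaks per Mb before and after it were 47.4 and 43.6 in the shSETD7 list, 62.1 and 49.1 in shCTL, and 53.7 and 61.8 in vehicle. They were 51.6 and 58.2 in the combination, 42.1 and 47.3 in GSK2879552, and 53.7 and 58.2 in DMSO. Bins of 100 kb reached 10 peaks at a centre 200 kb before MYC in the shCTL and DMSO lists, and 10 peaks centred 200 kb after MYC in the vehicle list. The bin centred 100 kb before MYC was sparse, with 3 peaks in shSETD7, 3 in shCTL, 4 in vehicle, 1 in the combination, 2 in GSK2879552 and 1 in DMSO. The longest stretch without any FOXA1 peak, 45.1 kb from chr8:128692903-128738028, ended 12 kb before the MYC position. In LNCaP alone the longest such stretch was 76.3 kb, chr8:128598778-128675088.

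**Figure D2:**
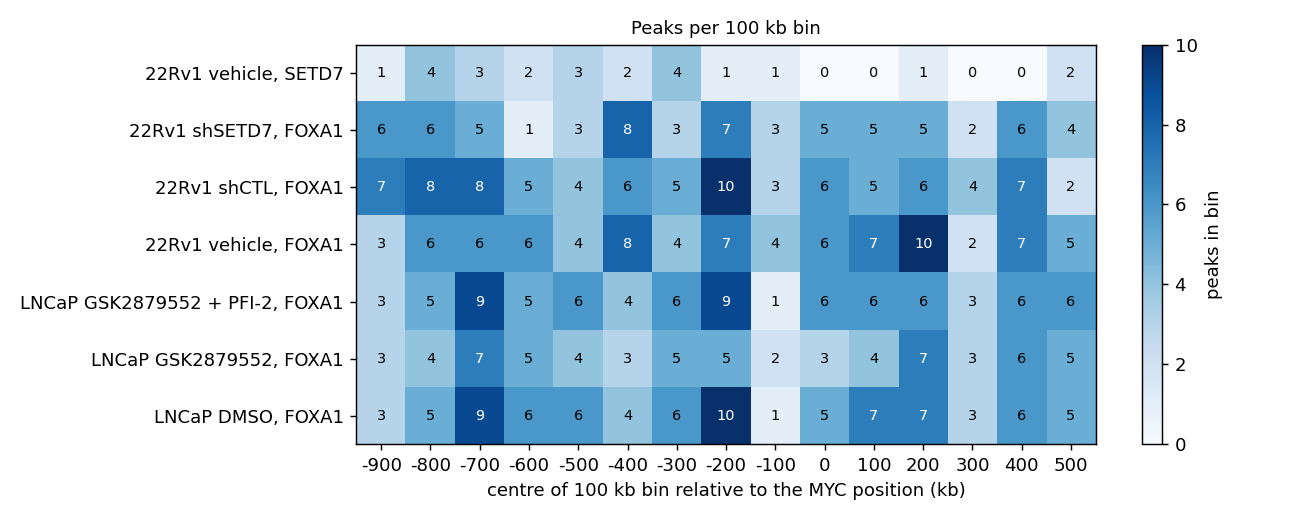
Number of peaks in bins of 100 kb, by the bin's centre relative to the MYC position in kb (columns), in each peak list (rows). The bins centred at -700 and -200 kb hold 9 and 10 DMSO peaks, while the bin centred at -100 kb holds 1.

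Around MYC itself, 11 sites lay within 50 kb of its position. The site nearest to the gene's position, chr8:128747922-128748425, was found in all 6 FOXA1 lists and centred 1.83 kb before it. Its percentile was 95.1 in shSETD7, 89.4 in shCTL and 80.9 in vehicle cells, and 69.8 in the combination, 72.4 in GSK2879552 and 80.4 in DMSO. FOXA1 thus had a peak beside MYC in the upper 50% of every FOXA1 list. A neighbour at chr8:128746196-128746547, 3.63 kb before the position, had percentiles of 75.1 in shSETD7, 72.5 in shCTL, 49.1 in vehicle and 42.6 in GSK2879552. The combination and DMSO lists had no peak there, and their nearest peak was the one beside MYC.

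Just beyond MYC, different sites were called in the lines. At chr8:128753766-128754225, 4.00 kb after the position, percentiles were 81.2 in shSETD7, 80.0 in shCTL and 90.5 in vehicle cells. In LNCaP this site was a weak peak of the combination, at percentile 10.3, and was absent from the GSK2879552 and DMSO lists. A DMSO peak at percentile 19.5 lay only 297 bp away, in the adjoining site, so its absence there depends on the overlap rule. The opposite held at chr8:128775658-128776187, 25.9 kb after the position on the PVT1 side. There the percentile was 95.4 in the combination, 93.5 in GSK2879552 and 92.0 in DMSO, and no 22Rv1 FOXA1 list had a peak. The nearest peak of a 22Rv1 FOXA1 list was 9.22 kb away, a shCTL peak at percentile 0.623.

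The other 7 sites within 50 kb were weaker or found in fewer lists. Chr8:128754434-128754999, just past the site 4.00 kb after the position, had percentiles of 43.5 in vehicle, 20.7 in the combination and 19.5 in DMSO. Chr8:128739523-128739830, 10.3 kb before the position, had 48.6 in shSETD7 and 66.6 in vehicle, with no shCTL peak. Chr8:128794699-128795125, 44.9 kb after it, had 65.8 in shCTL, 19.5 in vehicle, 20.7 in the combination and 30.3 in DMSO, and was absent from shSETD7 and GSK2879552. Chr8:128764023-128764313 was a peak of the combination (44.2) and DMSO (11). The remaining 3, at 11.9 kb before and 16.3 and 36.7 kb after the position, were each in 1 list, with percentiles of 13.1 and 0.623 in shCTL and 7.20 in shSETD7. No SETD7 peak lay within 50 kb of MYC.

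A core of 21 sites was found in all 6 FOXA1 lists, or 11% of the region's sites (7.30 to 16.2), against 7.53% of the merged sites of the genome. They included strong peaks far from MYC on both sides. The median percentile of these 21 was 77.3 in shSETD7, 77.0 in shCTL, 80.9 in vehicle, 77.7 in the combination, 82.0 in GSK2879552 and 80.4 in DMSO. Being found in every list selects for strength, so these medians are not compared with the rest.

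By median percentile, the strongest core site was chr8:128227195-128228018, 522 kb before MYC. In 22Rv1 its percentile was 77.3 in shSETD7, 99.9 in shCTL and 99.5 in vehicle, which is rank 14512 of 63952, rank 75 of 83994 and rank 318 of 65461. In LNCaP it was 99.2 in the combination, 98.3 in GSK2879552 and 99.5 in DMSO. The shSETD7 list was thus the only FOXA1 list in which it lay outside the strongest 10%. The next, chr8:128030498-128031430 at 719 kb before MYC, had 88.6 in shSETD7, 99.6 in shCTL, 99.5 in vehicle, 97.6 in the combination, and 96.9 in both GSK2879552 and DMSO. Here too the shSETD7 value was the lowest of the 6. At other core sites, such as those 467 and 243 kb before MYC (97.1 and 98.6), the shSETD7 value was the highest.

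Other core sites were high in LNCaP and uneven among the 22Rv1 lists. At chr8:129165189-129165757, 415 kb after MYC, the percentile was 99.7 in the combination, 99.5 in GSK2879552 and 99.6 in DMSO. In 22Rv1 it was 86.6 in shSETD7, 13.1 in shCTL and 94.7 in vehicle, so the control hairpin list stood apart there, not the knockdown list. At chr8:129188998-129189549, 439 kb after MYC, the shSETD7 percentile was 44.2 and the shCTL percentile 66.4, while vehicle cells gave 99.5 and the LNCaP lists 94.5, 91.5 and 90.3 (combination, GSK2879552 and DMSO). At chr8:128843840-128844348, 94.1 kb after MYC, values were 68.0 in shSETD7, 49.8 in shCTL and 96.5 in vehicle, against 94.4, 95.1 and 95 in those LNCaP lists. The percentile at these sites was lower in both hairpin lists than in the vehicle list. At other core sites it was higher in both, as at the site beside MYC (95.1 in shSETD7, 89.4 in shCTL and 80.9 in vehicle).

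Strong core sites also included chr8:128598288-128598777, 151 kb before MYC, which lay between 89.2 and 98.9 in every FOXA1 list. Chr8:128506873-128507397, 243 kb before MYC, lay between 88.4 and 98.6, and chr8:128519582-128520093, 230 kb before it, between 73.0 and 89.2. Chr8:128283052-128283638, 467 kb before MYC, had 97.1 in shSETD7, 96.1 in shCTL and 91.8 in vehicle, and 69.6 in the combination, 72.8 in GSK2879552 and 79.8 in DMSO. Chr8:128394812-128395274, 355 kb before MYC, had 70.0, 77.0 and 64.9 in shSETD7, shCTL and vehicle and between 89.5 and 90.2 in the combination, GSK2879552 and DMSO. The site beside MYC is described above, and the other 10 core sites had lowest percentiles of 3.99 to 60.1.

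**Figure D3:**
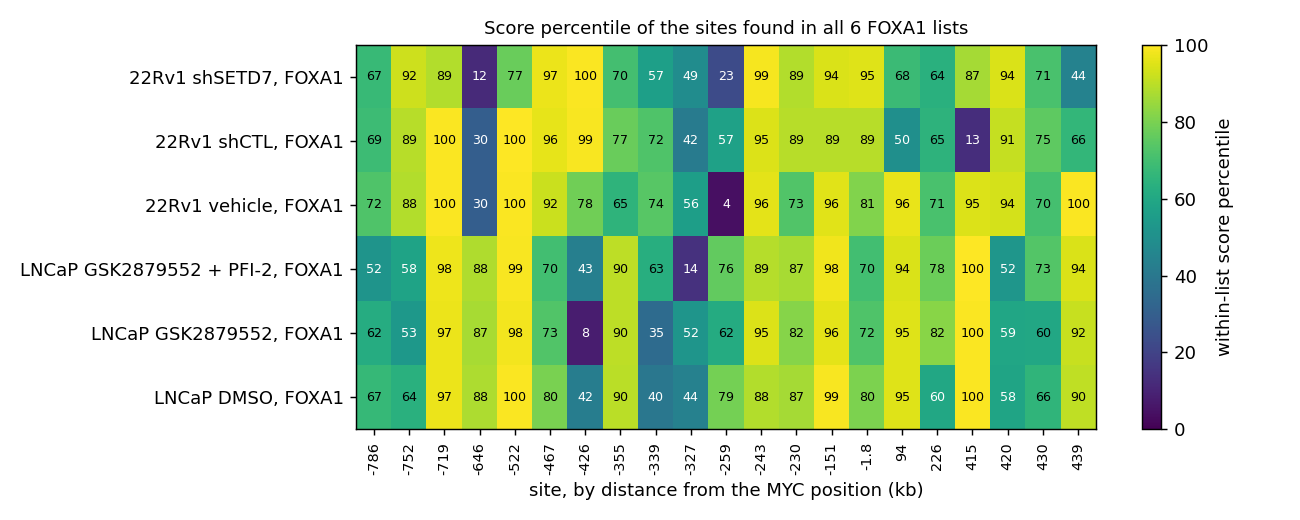
Within-list score percentile (colour and number, 0 to 100) of the 21 sites found in all 6 FOXA1 lists, by distance from the MYC position in kb (columns), in each list (rows). The sites 719 and 522 kb before MYC are lowest in shSETD7, while those 467 and 243 kb before it are highest there. The site 415 kb after MYC is low in shCTL only.

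The shSETD7 and shCTL lists address which FOXA1 sites were still called once SETD7 was knocked down. Of the 86 shCTL peaks of the region, 38 had no shSETD7 peak, or 44.2% (34.2 to 54.7). In the whole genome this was 55.5% of shCTL peaks, and on the rest of chromosome 8 it was 59.9%. Peaks elsewhere in the genome, weighted to the same score deciles, gave 55.4%. The share of shCTL peaks without a shSETD7 peak was lower in the region than in the whole list, whose value lay just outside the interval. That interval covers counting error only, and the difference was not tested. Of the 69 shSETD7 peaks, 21 had no shCTL peak, or 30.4% (20.8 to 42.1), against 41.8% in the genome and 37.4% at the same score deciles.

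Lists without the SETD7 hairpin also differed from each other in the region. Of the 85 vehicle peaks, 34 had no shCTL peak, or 40.0% (30.2 to 50.6), against 33.0% in the genome. Of the 86 shCTL peaks, 35 had no vehicle peak, or 40.7% (30.9 to 51.3), against 48.7% in the genome. The share of shCTL peaks absent from the shSETD7 list was therefore close to the share absent from the vehicle list. With the vehicle list as the starting point, 46 of 85 peaks had no shSETD7 peak, or 54.1% (43.6 to 64.3), against 56.6% in the genome. From that list the share absent from shSETD7 (54.1%) was thus higher than the share absent from shCTL (40.0%). The same order held in the genome, with 56.6% and 33.0%. Which starting list is used therefore changes the reading, and the difference was not tested.

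Sites absent after knockdown were mostly weak ones. The shCTL peaks with no shSETD7 peak had a median percentile of 33.5, and those with one 66.9, against 37.4 and 66.7 in the genome. Of the 7 shCTL peaks in the strongest 10% of their list, 6 had an shSETD7 peak. In the genome 21.6% of such shCTL peaks had none. The exception was chr8:128112286-128112703, 638 kb before MYC, at percentile 91.7 in shCTL and 77.4 in vehicle, with the nearest shSETD7 peak 7.90 kb away. In LNCaP it was at 28.9 in the combination and 14.0 in DMSO, and absent with GSK2879552.

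A group of 9 sites was found in all FOXA1 lists but shSETD7. They were 9 of the 30 sites that the other 5 lists shared, or 30.0% (16.7 to 47.9), against 36.9% of such sites in the genome. For the other lists of 22Rv1 the same count was 1 of 22 for shCTL, against 4.6% in the genome, and 6 of 27 for vehicle, against 14.3%. For the LNCaP lists it was 1 of 22 for the combination, 0 of 21 for GSK2879552 and 0 of 21 for DMSO, against 2.88%, 5.78% and 4.26% in the genome. Absence from the knockdown list alone was thus the most frequent of these 6 both in the region and in the genome. In the region its interval overlapped that of vehicle, 22.2% (10.6 to 40.8). The shSETD7 list, with 63952 peaks, was also the shortest of the FOXA1 lists, and the GSK2879552 list had 64217.

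Among these 9 sites, chr8:128448586-128448962, 301 kb before MYC, was strong everywhere else. Its percentile was 86.6 in shCTL, 80.9 in vehicle, 93.7 in the combination, 95.2 in GSK2879552 and 87.2 in DMSO, and the nearest shSETD7 peak was 25.7 kb away. Chr8:128907988-128908447, 158 kb after MYC, had 84.6 in shCTL, 62.5 in vehicle, 75.2 in the combination, 71.2 in GSK2879552 and 85.9 in DMSO, with the nearest shSETD7 peak 4.32 kb away. Chr8:128931279-128931842, 182 kb after MYC, had 69.9 in shCTL, 89.3 in vehicle, 85.3 in the combination, 79.1 in GSK2879552 and 77.4 in DMSO. Each of these was in the upper 50% of all 5 lists that held it.

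Absence from the knockdown list did not always leave the neighbourhood empty. Chr8:128505977-128506403, 244 kb before MYC, had 87.8 in shCTL, 65.9 in vehicle, 73.6 in the combination, 48.6 in GSK2879552 and 77.2 in DMSO. A shSETD7 peak at percentile 98.6, the core site 243 kb before MYC, began 469 bp away. Chr8:128074612-128075103, 675 kb before MYC, had 69.7 in shCTL, 15.5 in vehicle, 90.7 in the combination, 85.7 in GSK2879552 and 91.8 in DMSO, and a shSETD7 peak at percentile 5.00 lay 1.81 kb away. Chr8:129129782-129130213, 380 kb after MYC, had 65.9 in shCTL and 49.5 in vehicle against 91.0, 84.0 and 89.7 in the same LNCaP lists. Chr8:128017821-128018207, 732 kb before MYC, was uneven, with 64.2 in shCTL, 0.857 in vehicle, 34.5 in the combination, 4.10 in GSK2879552 and 47.4 in DMSO. The other 2 of the 9 sites had shCTL percentiles of 46.4 and 18.0. Outside this group, chr8:128189504-128189799, 560 kb before MYC, was in shCTL (67.7) and vehicle (64.4) only.

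In the other direction, 21 sites were in shSETD7 without shCTL. Of these, 6 were in the vehicle list, 13 were in no other list, and the private ones had a median percentile of 12.0 and a highest of 50.4. Shares within this class were not computed for the genome. The private ones were 13 of the region's 169 FOXA1 sites, against 11.2% of FOXA1 sites in the genome. The strongest of the 21 was chr8:128342455-128343006, 407 kb before MYC, with 80.7 in shSETD7 and 91.6 in vehicle. It was among the strongest sites of LNCaP, at 98.9 in the combination, 98.6 in GSK2879552 and 98.0 in DMSO, and the nearest shCTL peak was 10.7 kb away. It was the 1 site of the region missing from the shCTL list alone among the FOXA1 lists.

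The next was chr8:128531317-128531980, 218 kb before MYC, with 74.0 in shSETD7, 96.9 in vehicle, 71.4 in the combination and 67.2 in DMSO. A shCTL peak at percentile 26.2 lay 30 bp beyond the edge of the merged site. Chr8:128943906-128944175 (65.0 in shSETD7 and 46.7 in vehicle) and chr8:128864258-128864574 (54.3 and 71.2) were 22Rv1 sites on the PVT1 side without a shCTL peak. Chr8:128221042-128221409, at 50.4, was in the shSETD7 list only.

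At the 48 sites shared by shSETD7 and shCTL, percentiles differed by a median of 8.60 points and by more than 20 points at 13 sites. They were higher in shSETD7 at 27 sites and in shCTL at 21. For the 51 sites shared by vehicle and shCTL the median difference was 14.3 points, also with 13 sites over 20. Spearman's rho across shared sites, given as a description, was 0.77 for shSETD7 and shCTL and 0.61 for vehicle and shCTL.

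**Figure D4:**
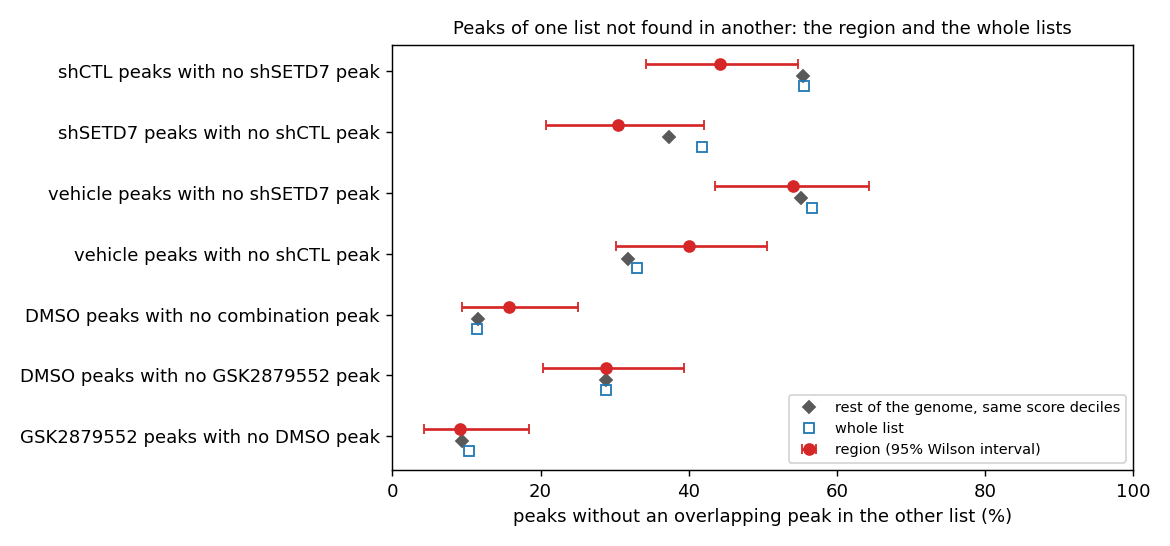
Share of peaks of 1 list with no overlapping peak in another list, in percent (horizontal), for 7 comparisons (rows). Red points are the region with 95% Wilson intervals, grey diamonds the rest of the genome at the same score deciles and open squares the whole list. For shCTL peaks with no shSETD7 peak the region is at 44.2% and the whole list at 55.5%, and for DMSO peaks with no GSK2879552 peak they are at 28.9% and 28.8%.

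The GSK2879552 and DMSO lists of LNCaP address which FOXA1 sites were missing under LSD1 inhibition. Of the 83 DMSO peaks of the region, 24 had no GSK2879552 peak, or 28.9% (20.3 to 39.4), against 28.8% in the genome. The region thus kept DMSO peaks in the same proportion as the whole list. None of the 11 DMSO peaks in the strongest 10% lacked a GSK2879552 peak, against 0.0125% of such peaks in the genome. Of the 66 GSK2879552 peaks, 6 had no DMSO peak, or 9.09% (4.23 to 18.4), against 10.4% in the genome. The GSK2879552 list was the shortest of the LNCaP lists.

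The DMSO peaks without a GSK2879552 peak had a median percentile of 25.0, and those with one 66.3, against 21.3 and 63.8 in the genome. The strongest pair was adjacent, 218 kb before MYC. Chr8:128531317-128531980 had 71.4 in the combination and 67.2 in DMSO, and chr8:128532001-128532307 had 65.0 in DMSO and no peak in the combination. The nearest GSK2879552 peak was 11.4 kb from the first. The others named by strength had DMSO percentiles of 54.7 (chr8:128250166-128250784), 46.6 (chr8:128201844-128202409), 43.8 (chr8:128888983-128889322), 43.6 (chr8:128027003-128027407), 36.6 (chr8:128103354-128103634), 36.3 (chr8:128859823-128860032), 33.5 (chr8:127908759-127909143) and 30.3 (chr8:128794699-128795125). Beside chr8:128103354-128103634 a GSK2879552 peak at percentile 87.1 lay 402 bp away, in a site found in all 6 FOXA1 lists. The site chr8:128027003-128027407, 723 kb before MYC, was at 96.0 in vehicle 22Rv1 cells, yet the shSETD7 and shCTL lists had no peak there.

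The sites in GSK2879552 without DMSO were weak. Their percentiles were 47.2 (chr8:128047817-128048094), 42.6 (the site 3.63 kb before MYC), 20.9 (chr8:128139084-128139272), 15.8 (chr8:128140407-128140623) and 13.8 (chr8:129227522-129227771), and 5.86 at the remaining site. Of these 6 peaks, 1 had a peak of the combination, or 16.7% (3.01 to 56.4), against 49.8% in the genome. None was in the upper 50% of the GSK2879552 list.

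**Figure D5:**
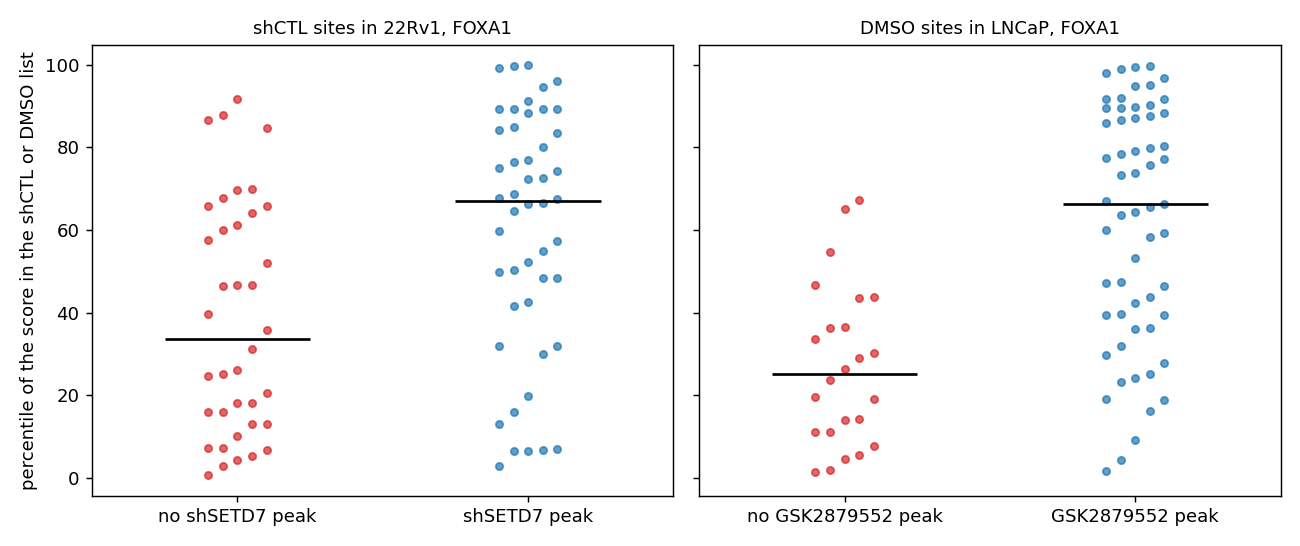
Within-list score percentile (vertical) of each shCTL site in 22Rv1 (left panel) and each DMSO site in LNCaP (right panel), split by absence or presence of an overlapping shSETD7 or GSK2879552 peak. Lines are medians, 33.5 and 66.9 for shCTL sites and 25.0 and 66.3 for DMSO sites. In the strongest 10% of the list, 1 of 7 shCTL peaks lacks an shSETD7 peak, against 21.6% in the genome. None of 11 such DMSO peaks lacks a GSK2879552 peak, against 0.0125% in the genome.

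The combination addresses whether inhibiting SETD7 as well left such sites in place. A peak of the combination was present at 13 of the 24 DMSO peaks that GSK2879552 lacked, or 54.2% (35.1 to 72.1), against 67.9% in the genome. The whole-list value lay inside the interval of the region. Present in the combination were, among others, chr8:128250166-128250784 (52.7 in the combination and 54.7 in DMSO) and chr8:128201844-128202409 (45.8 and 46.6). Of the 83 DMSO peaks, 13 had no peak of the combination, or 15.7% (9.39 to 25.0), against 11.4% in the genome. Of the 81 peaks of the combination, 11 had no DMSO peak, or 13.6% (7.76 to 22.7), against 15.2%, and 23 had no GSK2879552 peak, or 28.4% (19.7 to 39.0), against 30.1%.

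The LNCaP lists ranked their shared sites alike. All 3 held 57 sites. The median difference in percentile was 7.0 points over the 59 sites shared by GSK2879552 and DMSO, 6.10 over the 70 shared by the combination and DMSO, and 5.60 over the 58 shared by the combination and GSK2879552. Spearman's rho was 0.89, 0.92 and 0.90 in that order. The largest difference between GSK2879552 and DMSO was 44.8 points, at chr8:128923494-128923810, with 69.0 in GSK2879552 and 24.2 in DMSO.

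The lines shared FOXA1 sites in part. A 22Rv1 FOXA1 peak was present at 135 sites and an LNCaP peak at 99, with 65 in both, 70 in 22Rv1 lists only and 34 in LNCaP lists only. Sites in both lines were 38.5% (31.5 to 46.0) of the region's 169 FOXA1 sites, against 29.4% in the genome. Sites in 22Rv1 lists only were 41.4% (34.3 to 49.0), against 44.9%, and sites in LNCaP lists only were 20.1% (14.8 to 26.8), against 25.8%. Of the 85 vehicle 22Rv1 peaks, 42 overlapped a DMSO LNCaP peak, or 49.4% (39.0 to 59.8), against 48.3% in the genome. Of the 83 DMSO peaks, 42 overlapped a vehicle 22Rv1 peak, or 50.6% (40.1 to 61.1), against 39.2% in the genome. On the rest of chromosome 8 this share was 42.0%. At the 42 sites shared by vehicle 22Rv1 and DMSO LNCaP, percentiles differed by a median of 14.5 points, and rho was 0.40.

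Sites found in both 22Rv1 control lists and in no LNCaP list numbered 11, or 6.51% (3.67 to 11.3) of the FOXA1 sites, against 7.84% in the genome. The strongest were chr8:128036021-128036370, 714 kb before MYC (78.2 in shSETD7, 83.4 in shCTL and 67.6 in vehicle), and chr8:127817171-127817654, 933 kb before it (85.0, 76.5 and 68.2). Chr8:128311037-128311432 had 63.1, 66.2 and 56.9 in the same lists. Chr8:128189504-128189799 and chr8:129075588-129075959 had no shSETD7 peak, the second with 59.9 in shCTL and 63.7 in vehicle. Of the 11 sites, 7 were in the shSETD7 list too, a count for which no genome share was computed.

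Sites found in all 3 LNCaP lists and in no 22Rv1 FOXA1 list numbered 15, or 8.88% (5.45 to 14.1) of the FOXA1 sites, against 11.4% in the genome. After the site 25.9 kb beyond MYC, the strongest was chr8:129037245-129037713, 287 kb after MYC, with 79.8 in the combination, 84.3 in GSK2879552 and 75.7 in DMSO. The rest were weaker in DMSO, led by 47.2 at chr8:128064926-128065245, 46.4 at chr8:127968930-127969442 and 39.7 at chr8:128961694-128962078. Both strong LNCaP sites of this class lay on the PVT1 side of MYC.

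SETD7 is a lysine methyltransferase that acts on histone H3 and on other proteins. Its peaks in the region were moderate in number and none was among the strongest of its list. The SETD7 list held 24 peaks there, against a median of 30 per window of this length on chromosome 8 and 6 over the genome. At least as many were found in 74 of the 96 windows of chromosome 8 and in 20.6% of all windows. None of the 24 was in the strongest 10% of the list, and their median percentile was 40.6. Peaks per Mb numbered 22.1 before the MYC position and 5.45 after it, with 21 peaks and 3 peaks. Of the 24, only 1 overlapped a vehicle FOXA1 peak, or 4.17% (0.739 to 20.2), against 5.86% of SETD7 peaks in the genome. For the shCTL list the count was also 1, against 7.89% in the genome, and for the shSETD7 list it was 2, against 15.5%. At the DMSO list of LNCaP the count was 1 as well, or 4.17%, against 2.58% in the genome. Counted from FOXA1, 1 of the 85 vehicle peaks overlapped a SETD7 peak, or 1.18%, against 2.56% in the genome, and 2 of the 69 shSETD7 peaks did, or 2.90%, against 6.24%. SETD7 and FOXA1 peaks thus seldom coincided in the region, and the counts are too small to tell its shares from those of the genome. The other 22 of the 24 SETD7 sites were in no FOXA1 list, against 81.2% of SETD7 sites in the genome.

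The site shared by SETD7 and FOXA1 was chr8:128323958-128324462, 426 kb before MYC, and it was the 1 site of the region in all 7 lists. In the genome 0.21% of merged sites were in all 7. It was the strongest SETD7 peak of the region, at percentile 88.7 of that list. SETD7 scores covered a narrow range in the region: this peak scored 57, against a median of 28 and a lowest of 13 in the whole list. FOXA1 at this site was at 99.5 in shSETD7 and 99.1 in shCTL, and at 78.3 in vehicle cells. In LNCaP it was at 43.1 in the combination, 8.01 in GSK2879552 and 42.3 in DMSO. The second overlap, chr8:129269791-129270284 at 520 kb after MYC, was weak in both lists, with 40.6 in SETD7 and 5.00 in shSETD7.

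Among the other SETD7 sites, chr8:128200973-128201241, 549 kb before MYC, had percentile 79.6 and lay 602 bp from a site of shCTL, vehicle, the combination and DMSO. Chr8:128485704-128486047 had 64.1 and chr8:127943773-127944016 had 52.7. Chr8:127960571-127960862, chr8:128276286-128276727, chr8:128396495-128396792 and chr8:128428193-128428442 had 51.3 each, and chr8:127912104-127912729 and chr8:128661882-128662139 had 48.6 each. The last, 88.0 kb before MYC, was the SETD7 peak nearest to the gene's position.

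Taken over all 6 FOXA1 lists, sites found in a single one were about as frequent as elsewhere. Of the 169 FOXA1 sites, 62 were in 1 FOXA1 list only, or 36.7% (29.8 to 44.2), against 38.7% in the genome. Sites in no other list numbered 13 for shSETD7, 14 for shCTL and 20 for vehicle, with median percentiles of 12.0, 14.5 and 28.5. In the genome such sites were 11.2%, 11.1% and 7.66% of all FOXA1 sites. They numbered 6 for the combination, 1 for GSK2879552 and 7 for DMSO, with percentiles of at most 36.3, against 3.61%, 0.867% and 2.82% of all FOXA1 sites in the genome. The strongest private FOXA1 peak of the region was a vehicle peak at percentile 72.1.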

How the data were processed

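The data are 7 peak lists, 1 per library. Per the labels' protocols, 1% formaldehyde was used for crosslinking. Each peak carries a deposited score, a whole number set by the authors, whose definition is not given in the sources used here. MACS2 2.1.4, SAMtools 1.9, BWA 0.7.17-r1188 and FastQC 0.11.9, and build hg19, are named per the submitters' processing notes, with roles, settings and any input control not given. Read depth is unknown, so missing peaks may be peaks below a list's threshold.

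Groups came from the sample titles, with 1 library each, so no test was made. Only the 22 autosomes, X and Y were kept, and positions are 1-based. A peak was called absent from another list when no peak there overlapped it by at least 1 bp. Shares were counted over peaks and patterns over merged sites. A site's percentile is that of its strongest peak in the list, the share of the list with a lower score plus 50% of ties. Distances to the nearest peak are from the edge of the merged site. Shares at the same score deciles weight the rest of the genome by the deciles of the region's peaks.

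Named sites were those within 50 kb of MYC and the highest percentiles of each class: 10 in all 6 FOXA1 lists, 10 shCTL without shSETD7, 5 the reverse, 10 DMSO without GSK2879552, 5 the reverse, 10 SETD7 and 5 for each line. Others named were chosen after their values were seen: chr8:128923494-128923810 and chr8:129269791-129270284. The region, classes and gene names were chosen with earlier results of these data known. Of 11 gene symbols looked for, 10 were found in the RefSeq table. Alternatives were other overlap and merging rules, stricter or equal-length lists, a narrower region and, added after seeing the data, leaving out the vehicle list. The overlap code and bedtools 2.31.1 both gave 37413 shCTL peaks overlapping shSETD7, and 40.1% planted overlap in a simulated shCTL list was recovered as 40.1%. The tools were matplotlib 3.10.9, pandas 2.3.3, numpy 2.4.6, Python 3.11.15 and scipy 1.17.1.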

Additional observations from a re-analysis of the deposited data

How the results depend on the processing

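Of 82 alternatives run over 18 results, 65 stayed within the interval of the reported share or within 1.5 times the reported count, and 17 did not. Some of the 65 could not move. Cutting the FOXA1 lists to the shortest leaves the counts of SETD7 (24) and of shSETD7 (69), the shortest list, unchanged by construction. The higher-scoring 50% of each list gave 89 sites in place of 191, with 41 in shSETD7, 46 in shCTL, 45 in vehicle, 41 in the combination, 35 in GSK2879552, 40 in DMSO and 8 in SETD7, fewer by construction. It gave 13 sites in all 6 FOXA1 lists in place of 21, and raised the vehicle peaks kept with shSETD7 from 45.9% to 57.8%, the DMSO peaks kept with GSK2879552 from 71.1% to 80.0%, those kept with the combination from 84.3% to 95%, and the missing DMSO peaks present in the combination from 54.2% to 75.0%. FOXA1 lists of equal length gave 80.3% of DMSO peaks kept with GSK2879552. Taking 500 kb on each side of MYC gave 117 sites, 56 in shCTL and 10 in SETD7. The cause was not tested for the shares. The shCTL peaks kept with shSETD7 (55.8%) ranged from 47.7% with reciprocal 50% overlap to 64.3% within 500 kb of MYC. Without the vehicle list, 27 sites were in the other 5 FOXA1 lists. No paired analysis was possible because each group has 1 library. Depth is unknown, so a missing peak cannot be told apart from a weaker one.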
